A study of Homo sapiens with 16 samples.

Results

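The genes described here are the JUN family (JUN, JUNB and JUND) with 7 other immediate early and stress response genes, FOS, EGR1, IER2, IER3, IER5, ATF3 and ATF4. Their Ago2 binding peaks were found by gene name in the table of CLIP peaks, which held 4718 peaks with distinct values in 2213 genes. The 10 genes had 11 peaks, 4 in JUN, 3 in IER5, 2 in JUND, 1 in JUNB and 1 in ATF4. FOS, EGR1, IER2, IER3 and ATF3 were without a peak, and no row carried another name or RefSeq transcript of theirs. The study compared 293S cells, an established human embryonic kidney line, with and without treatment with hippuristanol at 1 µM for 30 min, in 2 cultures of each kind. CLIP, in which a protein is crosslinked to its RNA, precipitated and the attached RNA sequenced, was run on each culture with Ago2 antibodies from 3 suppliers, giving 12 libraries by the labels. Each peak has 1 log average over both treatments and 1 log ratio (hippuristanol over untreated), with no values per library. How the libraries were combined is not stated.

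With 1 log ratio per peak no difference has a replicate check, and none was tested. The depth of each library is unknown, and the log base is not stated in the labels or the file, so values are in the authors' log units and cannot be read as folds. The series also holds 4 RNA-seq libraries of treated and untreated cells, which were not analysed here. Without them, less Ago2 per transcript and less transcript cannot be told apart from a single log ratio. Whether the log ratios already take RNA level into account is not stated. None of 13 marker genes of other cell types had a peak. Only 2213 genes had any peak, so this says little about the identity of the cells.

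Immediate early genes are transcribed within minutes of a growth factor or stress signal, without new protein synthesis, and their mRNAs are short-lived. JUN, JUNB and JUND are basic leucine zipper proteins that pair with each other or with FOS proteins to form the transcription factor AP-1. ATF3 and ATF4 are relatives of theirs, and ATF4 is the main effector of the integrated stress response, in which its mRNA is translated when general initiation is low. Ago2 carries microRNAs to mRNAs, mostly in the 3′ untranslated region (3′ UTR). Hippuristanol blocks eIF4A, the helicase that unwinds the 5′ end of mRNAs for the ribosome.

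The genes did not share a direction. The 2 lowest log ratios among the 11 peaks both lay in the 3′ UTR of JUN, the 3 highest in the 3′ UTR of IER5, and JUNB, JUND and ATF4 lay near the middle of all peaks. A peak was counted as past the threshold when its log ratio lay more than 1 log unit from the median of all peaks, 0.15. Of the 11 peaks 2 lay past it on the low side, where 6.76% of all peaks did, and 0 on the high side, where 7.48% did. With so few peaks these counts say little about the genes as a group. Above the median of all peaks lay 6 of the 11, where the median itself sets 50% for all peaks, and above 0 lay 7, as did 59.1% of all peaks. The median log ratio of the 11 peaks was 0.32, above that of all peaks by 0.17, but the difference of the means was −0.16. By gene, taking the median of each gene's peaks, 1 of the 5 genes (IER5) lay above the median of all genes, 0.17, and 4 lay below it, with a median of 0.10.

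**Figure D1:**
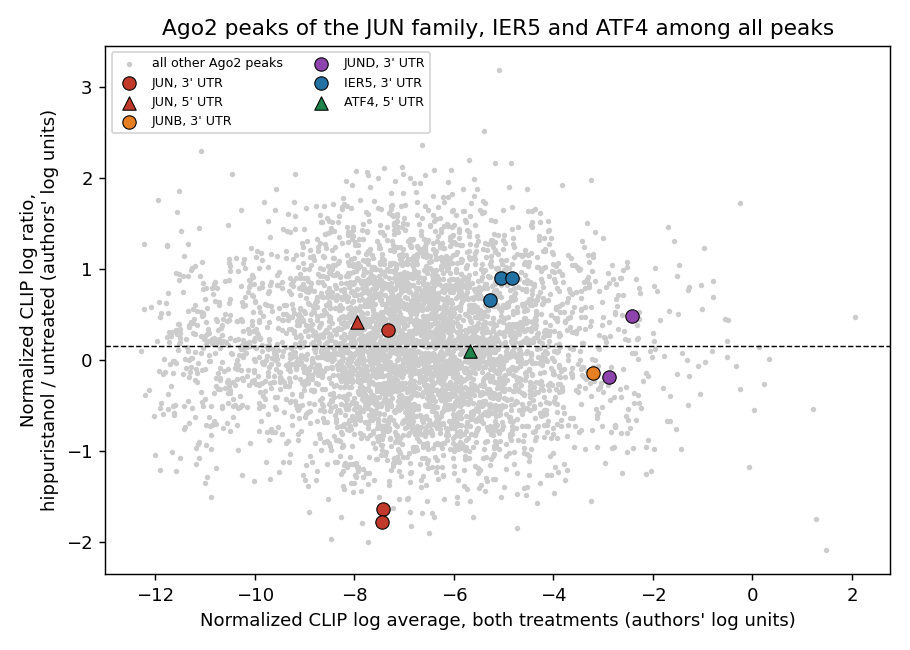
Each point is an Ago2 peak, with the log average over both treatments on the x axis and the log ratio of hippuristanol over untreated on the y axis, both in the authors' log units; the dashed line is the median of all peaks. A pair of JUN 3′ UTR peaks sits at the lower edge of the cloud, the IER5 peaks lie above the line, and JUND and JUNB lie to the right, at high log averages.

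All 11 peaks lay in untranslated regions. Of these, 9 (81.8%) were in 3′ UTRs and 2 (18.2%) in 5′ UTRs, against 61.3% and 3.92% of all peaks, and 0 were in coding sequence, which held 20.1% of all peaks. The 5′ UTR peaks belonged to JUN and ATF4. Peaks were 23 to 67 nt wide, around the median of 39 nt for all peaks.

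The log averages ran from JUND and JUNB at the top to JUN at the bottom. JUND, which of the JUN proteins is the one made most steadily in growing cells, had log averages of −2.42 and −2.88 in the authors' deposited table, ranks 29 and 54 of 2894 3′ UTR peaks. JUNB, an AP-1 subunit that often opposes JUN, followed at −3.21 in the authors' deposited table, rank 77. The IER5 peaks lay between −4.83 and −5.28 and the ATF4 peak at −5.68 in the authors' deposited table, all above the median of all peaks, −6.76. The JUN peaks lay between −7.33 and −7.94 in the authors' deposited table, below that median. JUN thus had the most peaks and the lowest log averages of the 5 genes. Whether log averages were scaled to peak width or to RNA level is not stated. A higher log average therefore cannot be read as more Ago2, in all or per transcript. Within a gene the log averages spanned 0.61 in JUN, 0.46 in JUND and 0.45 in IER5. These ranges were not set beside those of other genes.

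JUN, the founding AP-1 subunit and the main nuclear substrate of the JNK kinases, had peaks on both sides of its coding sequence. Its 5′ UTR peak (hg19, chromosome 1, 59248728 to 59248751, minus strand) was listed at 0.42 (log ratio) in the authors' deposited table. The first 3′ UTR peak in the direction of transcription (59247462 to 59247502) had −1.64 in the authors' deposited table. The second (59247342 to 59247409), 53 nt further on, had −1.78, and the third (59247085 to 59247123), 219 nt beyond that, had 0.32 in the authors' deposited table. So the pair of neighbouring peaks in the middle was low, and the peaks on either side lay slightly above the median of all peaks.

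The low pair of JUN was at the edge of the whole table. Among all 4718 peaks the log ratios of −1.78 and −1.64 in the authors' deposited table were the 8th and 17th lowest, and among the 2894 3′ UTR peaks the 5th and 9th lowest. Since the spread of log ratios can differ with log average, each was also set beside peaks whose log average lay within 0.25 of its own. Of 512 such peaks 0 were as low as −1.78, and the 5th percentile of their log ratios was −0.86. Of 521 such peaks 1 was as low as −1.64, and that 1 was the neighbouring JUN peak. The other JUN peaks were ordinary by the same measure, with 62.5% and 58.8% of like peaks at or below them. Of 750 genes with 2 or more peaks, JUN was 1 of 36 (4.8%) with at least 2 peaks past the threshold on the low side. That share takes no account of the number of peaks. Among the 65 other genes with 4 peaks, CAMSAP2, DLL1 and TGIF1 also had 2 such peaks.

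**Figure D2:**
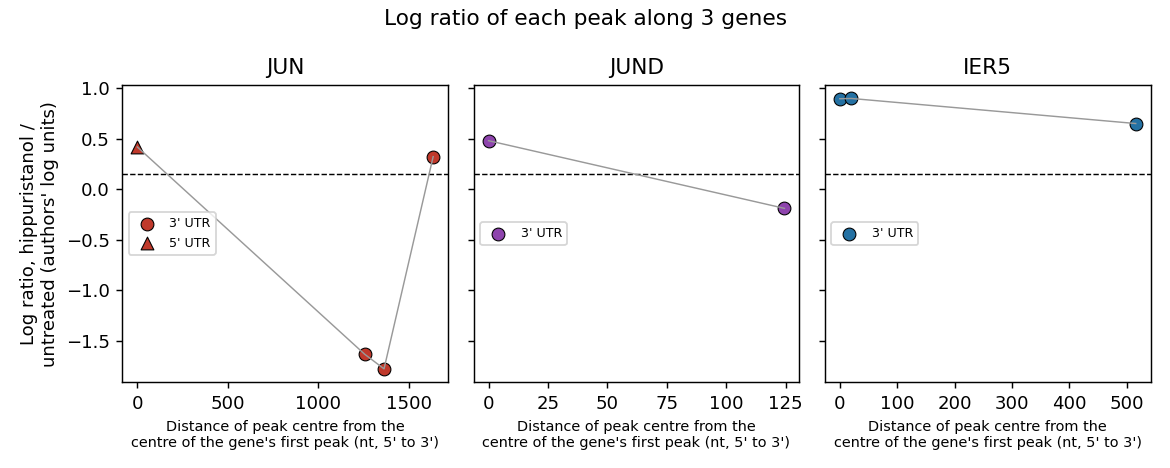
Log ratio of each peak, in the authors' log units, against the distance of its centre in nt from the centre of the gene's first peak, in the direction of transcription, for JUN, JUND and IER5; circles are 3′ UTR peaks, the triangle a 5′ UTR peak, and the dashed line the median of all peaks. In JUN the neighbouring pair at −1.64 and −1.78 lies far below the peaks before and after it, and the IER5 peaks stay together.

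Of the 3 steps between neighbouring JUN peaks, those into and out of the low pair were large and the one within it was small. The peak at −1.78 and the one after it differed by 2.10, where 362 neighbouring pairs of other genes 100 to under 300 nt apart had a median difference of 0.57 and 5 of them (1.38%) differed as much. Between the 5′ UTR peak and the first 3′ UTR peak, 1226 nt apart across the coding sequence, the difference was 2.05. It was reached by 20 of 482 pairs (4.15%) at 1000 nt or more. Gaps are genomic, so those of other genes can include introns, while JUN has 1 exon. Genes with many peaks, such as XIST with 296, give many of the pairs compared. The neighbouring low pair differed by 0.14, less than the median of 0.56 for 863 pairs under 100 nt apart. Over its 4 peaks JUN spanned 2.20, a range that 7 of 65 other genes with 4 peaks (10.8%) reached. The gene median of JUN, −0.66, thus lies at a value that no peak of JUN had. The pair was singled out for its low log ratios. Its large differences from the other JUN peaks and the wide range restate those values and are not further support.

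**Figure D3:**
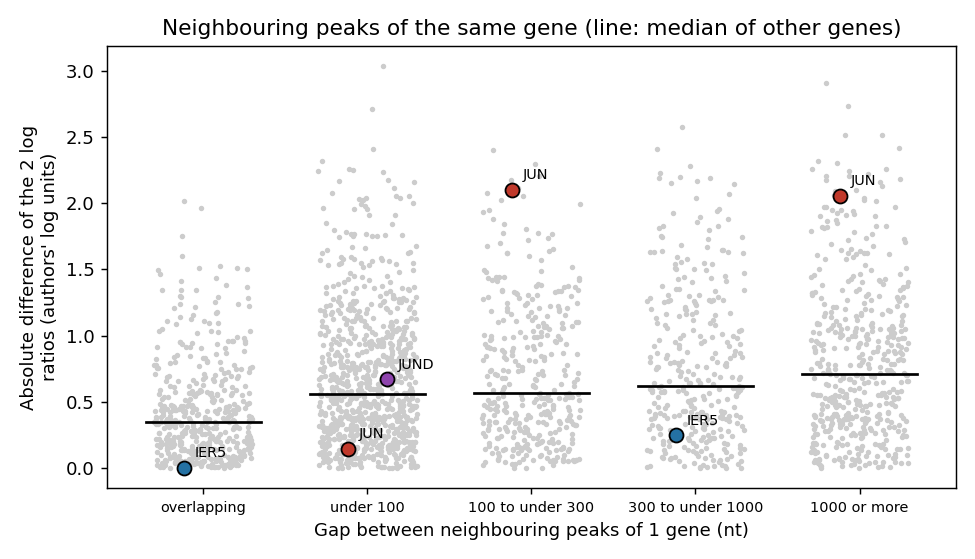
Absolute difference of the log ratios of neighbouring peaks of the same gene, in the authors' log units, by genomic gap in nt. Grey points are pairs of other genes, black lines their medians, and coloured points the pairs of JUN, JUND and IER5. JUN has 1 pair well under the median and 2 pairs above 2.

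The 3′ UTR of JUN holds matches to the seeds of 4 of the 37 microRNA families searched. The letters searched were the 7-nt complement of bases 2 to 8 of the microRNA, on the transcript strand only, in the 3′ UTR of 1287 nt of the GENCODE 29 transcript. These sequences are shown because microRNAs place Ago2 on such letters. The mature microRNAs, from RefSeq (GRCh38.p14), have their seeds in capitals, and the miR-101 family is added for JUNB:
hsa-miR-200c-3p: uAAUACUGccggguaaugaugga
hsa-miR-139-5p: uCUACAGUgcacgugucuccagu
hsa-miR-24-3p: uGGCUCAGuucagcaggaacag
hsa-miR-9-5p: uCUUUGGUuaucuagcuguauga
hsa-miR-101-3p: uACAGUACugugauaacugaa

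The matching stretches, with the match in capitals and 5′ to 3′ on the mRNA, lay in the 3′ UTRs of JUN and JUNB:
JUN, miR-200c: acattcgatctcattCAGTATTaaaggggg
JUN, miR-139: caaactgcaatagagACTGTAGattgcttc
JUN, miR-24: tttgtgagagcgaggCTGAGCCtacagatg
JUN, miR-9: tatatggaattgcttACCAAAGgatagtgc
JUNB, miR-101: tcccctctctgcaccGTACTGTggaaaaga

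In JUN these matches began 331, 377, 468 and 972 nt after the stop codon, in the order printed. The stretches lie on chromosome 1 of GRCh38, minus strand, at 58781730 to 58781759, 58781684 to 58781713, 58781593 to 58781622 and 58781089 to 58781118. The matches for miR-200c and miR-139 were followed by an A, which lengthens the usual site. CAGTATT was present in 19.3% of 218 other 3′ UTRs, ACTGTAG in 8.26%, CTGAGCC in 13.8% and ACCAAAG in 11.9%. These were 3′ UTRs of genes with a 3′ UTR peak, 1 annotated transcript per gene, within 20% of JUN in length. Some of these annotations are shorter than the region that holds the peaks, so all shares by like length are rough. The peaks are on hg19 and these positions on GRCh38, so which match, if any, lies under which peak was not determined. A match shows only that the letters are present, and neither the level of each microRNA in these cells nor its binding was measured here.

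JUND had a pair of 3′ UTR peaks on either side of the median. The upstream peak (hg19, chromosome 19, 18390949 to 18391013, minus strand) had a log ratio of 0.48 and the downstream one (18390844 to 18390869), 80 nt on, had −0.19 in the authors' deposited table. They lay at percentiles 68.6 and 30.2 of all peaks, inside the bulk of the table. Their difference of 0.67 was reached by 42.3% of 863 pairs under 100 nt apart. The 3′ UTR of JUND, 681 nt long with 60.1% GC, held none of the 37 seed matches searched. That GC content was above that of 95.1% of the 3′ UTRs of genes with a 3′ UTR peak. The 5′ UTR of JUND, 138 nt with 89.9% GC, was richer in GC than 98.96% of those of the genes compared, and no peak was listed there.

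JUNB had a single peak, in the 3′ UTR (hg19, chromosome 19, 12903788 to 12903816, plus strand), listed at −0.15 (log ratio) in the authors' deposited table. It stood at percentile 32.2 of all peaks, and 25 of 74 peaks of like log average were as low. The match to the miR-101 seed printed above begins 376 nt after the stop codon in a 3′ UTR of 500 nt (GRCh38, chromosome 19, 12793176 to 12793205, plus strand). It was the only match in JUNB among the 37 families searched. GTACTGT occurred in 0.917% of the 109 other 3′ UTRs of like length, but in 16.8% of all genes with a 3′ UTR peak. The letters also occurred in FOS and IER2, which had no peak.

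IER5, an immediate early nuclear protein linked to the heat shock factor HSF1, had the highest log ratios of the 5 genes. Its 3 peaks lay in the 3′ UTR (hg19, chromosome 1, plus strand) and had log ratios of 0.90 (181059264 to 181059289), 0.90 (181059270 to 181059323) and 0.65 (181059768 to 181059816) in the authors' deposited table. All lay above the median of all peaks, at percentiles 75.7 to 85.9, and none was past the threshold of 1 log unit. The first 2 were more than 0.5 above the median of all peaks, as were 24.3% of all peaks, while the low JUN pair was more than 0.5 below it, as were 22.9%. The first 2 overlap by 19 nt and may share reads, so they are not separate measurements. The third lies 445 nt further on, and its difference of 0.25 from its neighbour was smaller than the median of 0.62 for 320 pairs 300 to under 1000 nt apart. The range over the 3 peaks, 0.25, was as narrow in 5 of 130 other genes with 3 peaks (3.85%). Those genes were not limited to ones with overlapping peaks, so this share can make the narrow range look rarer than it is. Of like peaks by log average, 11.6% to 21.4% were as high.

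The 3′ UTR of IER5 is long, 3013 nt, and held matches to 7 of the 37 families, among them 1 for miR-200c, which JUN also has. CAGTATT was present in 36.1% of 227 other 3′ UTRs of like length, so a match is common there. The remaining families were miR-30, miR-7, miR-26, miR-34, miR-128 and miR-143.

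The single peak listed for ATF4 lay in its 5′ UTR. The peak (hg19, chromosome 22, 39917314 to 39917350, plus strand) was listed at 0.10 (log ratio) in the authors' deposited table, at percentile 43.0 of the 185 5′ UTR peaks, whose median was 0.25. Its log average ranked 65 of those 185. Translation of ATF4 is known to depend on upstream open reading frames in that leader. The annotated 5′ UTR, 882 nt, was longer than 97.2% of those compared and held 7 ATG triplets, where 43.8% of 73 other 5′ UTRs of like length held as many. The 5′ UTR of JUN, 1257 nt, was longer than 99.1% and held 3 ATG triplets, where 73.3% of 30 others held as many. So the genes with 5′ UTR peaks were those with the longest 5′ UTRs of the 10. The annotated 3′ UTR of ATF4 is short, 81 nt.

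The 5 genes without a peak encode FOS, the partner of JUN in AP-1, the zinc finger factor EGR1, the nuclear protein IER2, the survival regulator IER3 and the stress-induced ATF3. Their annotated 3′ UTRs, 737 to 1234 nt, lay within the range of the genes with peaks, 81 to 3013 nt. Of the 37 seed families, 6 had a match in FOS, 5 in IER2, 4 in EGR1, 2 in ATF3 and 0 in IER3. JUN shared the match for miR-139 with FOS, for miR-24 with IER2 and for miR-200c with EGR1. An absent row does not show an absence of Ago2, because the caller's limits are not stated and the RNA levels of these genes were not analysed here.

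AU-rich pentamers (ATTTA), found in many short-lived mRNAs, were also counted on the transcript strand, overlaps included. FOS had 5 and IER3 6, numbers reached by 5.84% of 154 and 2% of 150 other 3′ UTRs of like length. JUN had 3, as many as 56.4% of 218 3′ UTRs of like length, and IER5 had 10, as many as 29.5% of 227. JUNB had 2, ATF3 3, JUND and EGR1 1 each, and IER2 and ATF4 0. ATTTA was present at least once in 87.2% of the 3′ UTRs of like length to JUN and in 61.7% of those to FOS. The pair richest in pentamers for its length, FOS and IER3, had no peak, but neither did IER2 with 0, EGR1 with 1 or ATF3 with 3.

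**Figure D4:**
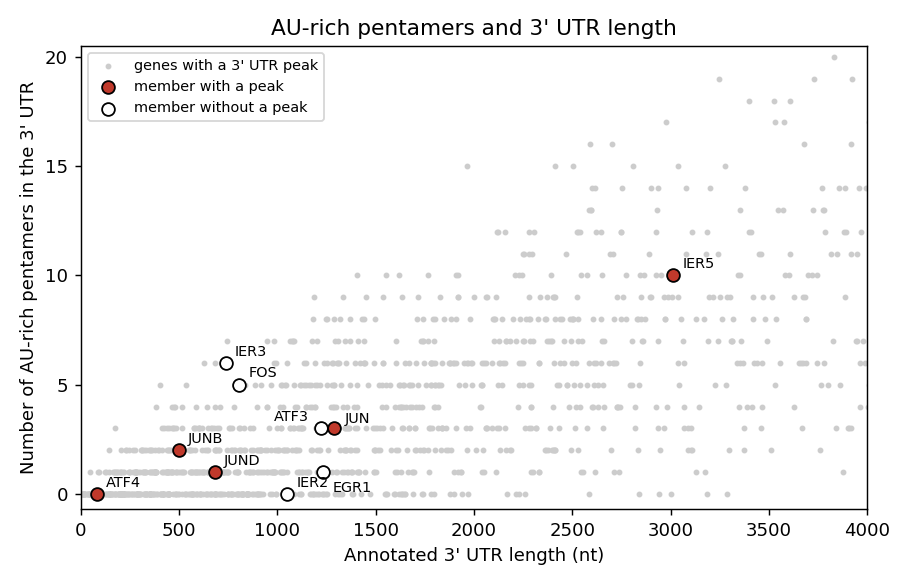
Number of AU-rich pentamers against annotated 3′ UTR length in nt; grey points are genes with a 3′ UTR peak up to 4000 nt and 20 pentamers, filled points the genes of the list with a peak and open points those without. FOS and IER3 lie above most genes of their length, and JUN, JUNB and JUND lie among the others.

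Other genes of these pathways were taken from 4 lists, 127 genes in all, of which 33 had a peak. Among the partners and relatives of AP-1 with leucine zippers, 5 of 31 had a peak and 0 of the 5 lay above the median of all genes, where 50% of all genes do, with a median of −0.33. CEBPA, a differentiation factor of liver, fat and myeloid cells, had −0.71 in its 3′ UTR, and MAF −0.71 in its coding sequence, both at high log averages (−2.76 and −3.92) in the authors' deposited table. ATF2, a JUN partner, had −0.04, and BACH1, a haem-sensing repressor, −0.33 in the authors' deposited table. NFE2L1, an activator of proteasome genes, had a median of −0.10 over 3 peaks. None of the 7 peaks was past the threshold.

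The other immediate early genes were spread on both sides. Of 46 listed, 15 had a peak, and 6 lay above and 9 below the median of all genes, with a median of 0.09. Past the threshold were 8 of 67 peaks (11.9%) on the high side, where 7.48% of all peaks did, and 0 on the low side, where 6.76% did. These were 4 peaks of MCL1, an antiapoptotic BCL2 relative whose gene median over 11 peaks was 0.79, 2 of the 29 peaks of the antiproliferative BTG2, whose median was 0.10, and 1 each of BTG1 (1.21) and IER3IP1 (1.88) in the authors' deposited table. IER3IP1 is a protein of the endoplasmic reticulum listed for its name. Ranked by the single peak with the highest log average, the first 4 genes were BTG2, CSRNP1, TOB1 and SIK1. CSRNP1, a nuclear factor, had 0.71 and TOB1, an antiproliferative relative of BTG2, 0.63 in the authors' deposited table. SIK1, a salt-inducible kinase, had a median of −0.52 over 3 peaks.

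Upstream kinases and partners of the serum response factor SRF had 7 of 28 genes with a peak, 4 above and 3 below the median of all genes, with a median of 0.43. MAPK8, the JUN kinase JNK1, had −0.10 in its coding sequence in the authors' deposited table. FBXW7, which marks JUN for degradation, had a median of 0.54 over 2 peaks, and the SRF partner ELK4 had 0.59 in the authors' deposited table. MAP3K1, a kinase upstream of JNK, had 3′ UTR peaks at 0.01 and −1.68 in the authors' deposited table, the lower being the only 1 of the 10 peaks of the list past the threshold, where 6.76% of all peaks lay on the low side. Like JUN, MAP3K1 thus had low and middling peaks in the same 3′ UTR.

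Genes of the ATF4 pathway lay mostly above the median. Of 22 listed, 6 had a peak, 5 above and 1 below, with a median of 0.58. Past the threshold were 3 of 33 peaks (9.09%) on the high side and 2 (6.06%) on the low side, near the shares of all peaks. On the high side were EIF2S1, the eIF2 subunit that stress kinases phosphorylate, at 1.29, and PPP1R15B, a subunit of the phosphatase that reverses this, at 1.51 and 1.22 in the authors' deposited table. On the low side were CHAC1, an enzyme of glutathione breakdown, at −1.26, and DDIT4, an inhibitor of mTORC1, at −0.88 in the authors' deposited table. The gene medians of PPP1R15B, CHAC1 and DDIT4 were 0.71 over 12 peaks, 0.30 over 4 and −0.12 over 7. VLDLR, a lipoprotein receptor, had a median of 0.91 over 2 peaks. No difference between the lists was tested.

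**Figure D5:**
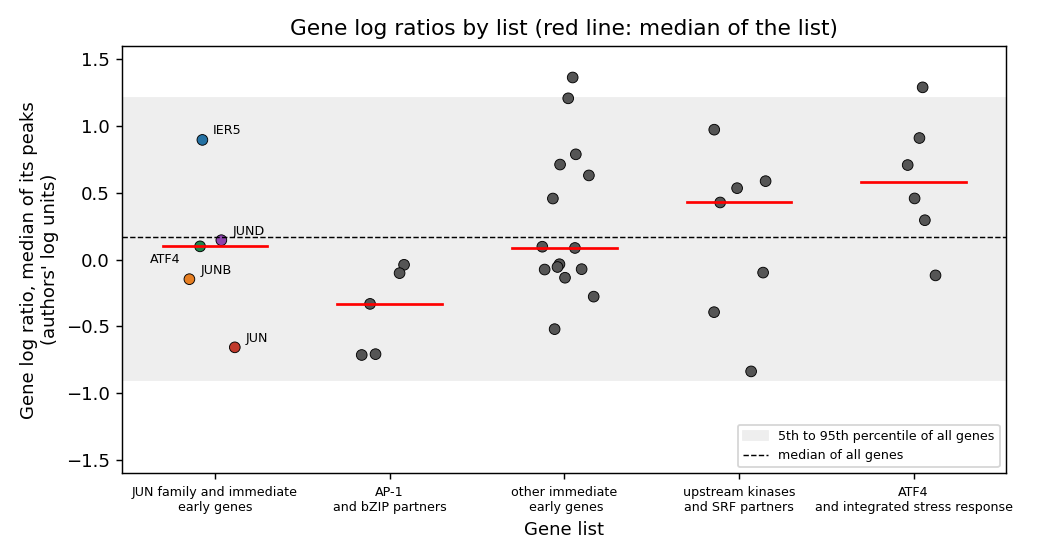
Log ratio of each gene with a peak, as the median of its peaks in the authors' log units, for the JUN family and immediate early genes and for the 4 other lists; red lines are list medians, the dashed line the median of all genes and the grey band their 5th to 95th percentile. The relatives of AP-1 lie below the dashed line, the ATF4 pathway mostly above it, and JUN and IER5 at opposite ends of their list.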

How the data were processed

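Per the file header, the authors deposited normalized scores on a log scale, a log average and a log ratio per Ago2 peak. The labels and the file do not state the kind of normalization, the log base, the peak caller, the filters or the pooling. DESeq, TopHat and Bowtie 0.12.8 on hg19 are named, without their roles, per the submitters' processing notes. Rows of 1 gene with identical values were counted once, which removed 50 of 4768 rows, none among the genes described. Coordinates are printed as deposited, and 0 of the 11 peaks lay inside their gene's GRCh38 span.

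Ranks, medians and gaps were computed with Python 3.11.15 and pandas 2.3.3. Checks covered the removal of repeated rows and the recovery of a shift added to shuffled log ratios. Ranks, gaps and sequence matches were not checked in this way. UTRs came from GENCODE 29 transcripts, 1 per gene, matched by RefSeq identifier or symbol for 99.5% of coding genes. For some genes the 3′ UTR used is shorter than the stretch its peaks cover. That of MCL1 is 294 nt, while its 3′ UTR peaks were listed from 150547225 to 150549848 (hg19). Percentiles of length and GC and shares by like length carry this limit. Of 40 microRNA families 37 had a sequence (hsa-miR-186-5p, hsa-miR-374a-5p and hsa-miR-124-3p had no entry). Windows of 0.25 log average and 20% length were set with values known. The genes, lists and families were chosen with earlier results of these data known. Named list genes are the 4 of each list with the highest log average and any with a peak past the threshold. BACH1, which met neither rule, is named besides. The alternatives concern duplicate rows, annotation class, means and thresholds.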

Additional observations from a re-analysis of the deposited data

How the results depend on the processing

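The median difference between the 11 peaks and all peaks, 0.17, was −0.16 with means, and 0.33 with JUN left out, an alternative chosen after seeing the data; with every row counted or 3′ UTR peaks only it stayed at 0.17. The same difference by gene, −0.070, was 0.15 when a gene took the value of its peak with the highest log average, −0.16 with 3′ UTR peaks only, −0.092 with means over genes and −0.047 with JUN left out; it stayed near −0.07 with every row counted and with the mean of a gene's peaks. The group therefore has no stable direction. Past a threshold of 0.5 lay 2 peaks on the high side, both of IER5, in place of 0, and the low side kept a count of 2. With a level of 0, 7 peaks lay above and 4 below in place of 6 and 5. The gene value of IER5, 0.90, was 0.78 when its overlapping peaks were reduced to 1, and that of the other 4 genes did not move. No paired analysis was possible because no values per library were given, and leaving out a replicate was not run for the same reason. Depth per library is unknown.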

Other observations

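JUN shared its pattern, at least 2 peaks more than 1 log unit below the median of all peaks, with 35 other genes, and those named here were chosen after their values were seen. EIF2S3, the gamma subunit of eIF2, had 2 such peaks of 3 and a gene median of −1.35. The microtubule-binding protein CAMSAP2, the Notch ligand DLL1 and the homeobox repressor TGIF1 had 2 of 4 each, as JUN did, with medians of −0.94, −0.48 and −0.37. In CAMSAP2, DLL1 and TGIF1 the highest peak stood at 1.42, 0.59 and 1.05, and in JUN at 0.42, so low and middling or high peaks were found within the same gene in each. Whether such peaks overlap or neighbour each other was examined for JUN alone.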
